A study of Mus musculus with 2 samples.

Results

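Elastic fibre and microfibril genes were followed in dermal fibroblast-lineage cells of mouse skin with and without imiquimod. The 10 genes, Fbn1, Eln, Fbln1, Fbln2, Fbln5, Efemp1, Efemp2, Mfap2, Mfap4 and Mfap5, were chosen by symbol from the 31053 gene identifiers of the files, by a rule that uses no measured value. All 10 had at least 1 count in each library. Single-cell RNA sequencing had been run on 2 libraries, 1 of untreated skin (UT) and 1 of skin treated over 7 days with imiquimod (IMQ), a drug that activates Toll-like receptors and, applied to mouse skin, brings on a psoriasis-like dermatitis. Both libraries came from the dermis of C57BL/6 mice aged 8 weeks that carried PdgfraDreER-tdTomato, and both were sorted for live CD45- tdTomato+ cells, so the untreated cells shared the reporter, the digestion and the sort. In this reporter the Pdgfra gene drives a Dre recombinase that acts after tamoxifen, so the sort takes cells that expressed Pdgfra when tamoxifen was given, and their descendants, whether or not they still express it. The labels do not give the number of mice behind each library.

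Elastic fibres let skin stretch and recoil. Fibrillin-1, the product of Fbn1, assembles into microfibrils, and tropoelastin, the product of Eln, is laid on this scaffold and cross-linked by lysyl oxidases. Microfibril-associated proteins decorate the fibrillin scaffold, and fibulins bridge elastin, fibrillin and the cross-linking enzymes, while latent TGF-beta binding proteins tether growth factor to the same matrix. In skin, dermal fibroblasts are the main makers of all of these proteins.

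Barcodes with 200 to 5000 detected genes and at most 5% of their counts from mitochondrial genes were kept, which left 1045 of 1415 UT barcodes and 571 of 5047 IMQ barcodes. A count is a unique molecular identifier (UMI), 1 captured transcript read at its 3′ end, and levels are given as UMIs of a gene per 1000000 UMIs of the library (CPM). Since each transcript counts once, CPM does not scale with transcript length, and genes were compared with each other on this scale. The kept barcodes held 1104798 UMIs in UT (median 741 per barcode) and 460947 in IMQ (median 659). The libraries stood apart in several ways that touch every ratio below. Gm42418 alone took 1.38% of UMIs in UT and 14.6% in IMQ, and the median of the 8129 genes with at least 10 UMIs was lower in IMQ by 0.61 on the log2 scale. The 7 fibroblast markers were all present in both libraries, although Pdgfra itself was seen in 3.92% of UT and 2.45% of IMQ barcodes. With 1 library per condition there is no replicate error and no test between conditions: intervals are exact 95% intervals that cover counting error only, and UT and IMQ name these libraries.

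In CPM, the elastic core of the system was lower in the IMQ library. The most abundant microfibril-associated gene, over the kept barcodes, was at about the same CPM. Fbn1 was 5.36-fold lower and Eln 2.62-fold lower in IMQ, and Fbln2, Fbln5 and Efemp2 were each a little over 2-fold lower. Fbln1 was 1.58-fold higher, and Mfap4, Mfap2 and Efemp1 lay between 1.02-fold and 1.18-fold of their UT level. In counts, 5 of the 10 genes were at least 2-fold lower in IMQ, where 32.0% of the 8129 genes were, and 0 of 10 were at least 2-fold higher, where 3.73% of all genes were. The median ratio over the 10 genes was -0.92 on the log2 scale, against -0.61 for all genes and -0.56 for the 1346 genes in the same range of mean CPM, of which 23.3% were at least 2-fold lower and 3.27% at least 2-fold higher. Among the 1054 genes with a mean of at least 100 CPM these shares were 19.9% and 3.70%, and among all 13397 genes with a UMI they were 33.3% and 8.01%. Relative to the median gene, 1 of the 10 was at least 2-fold lower (Fbn1, 15.4% of genes) and 1 at least 2-fold higher (Fbln1, 11.9% of genes). On this scale Eln stood at -0.79 and Mfap4 at 0.68. Of the 8129 genes, 20.3% had a lower ratio than Eln and 79.6% a lower one than Mfap4. For Fbln2, Fbln5 and Efemp2 this share was 32.0%, 30.6% and 27.4%.

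**Figure D1:**
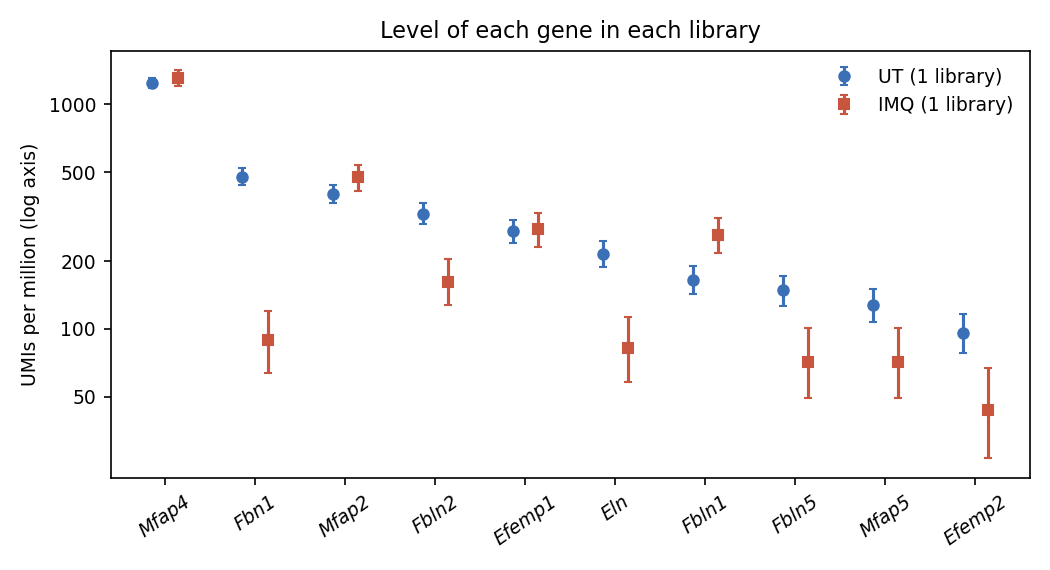
Level of each of the 10 genes in the UT library (circles) and the IMQ library (squares), in CPM on a log axis, with exact Poisson 95% intervals. Mfap4 sits highest in both libraries, and Fbn1 is next at 477 CPM in UT but at 88.9 CPM in IMQ.

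Fbn1 spans 2:125300594-125507993 on the minus strand (GRCm38, GENCODE M21 annotation). It had 527 UMIs in UT, which is 477 CPM (437 to 520), and 41 UMIs in IMQ, which is 88.9 CPM (63.8 to 121). The intervals of the libraries lay far apart. On the log2 scale IMQ stood at -2.42 relative to UT (-2.92 to -1.96), and 6.22% of the 8129 genes had a lower ratio. The difference lay both in how many barcodes showed the gene and in how many UMIs they held. Fbn1 was seen in 262 of 1045 UT barcodes (25.1%, Clopper-Pearson interval 22.5 to 27.8) with a mean of 2.01 UMIs where seen, and in 37 of 571 IMQ barcodes (6.48%, 4.60 to 8.82) with a mean of 1.11. No single barcode carried it, as the highest held 15 UMIs in UT and 3 in IMQ, and without these barcodes the ratio was -2.50. The longest annotated Fbn1 transcript has 11971 bases, and genes of the same CPM range with transcripts of 5000 bases or more had a median ratio of -0.70, against -0.55 for those under 2000 bases. Any part of transcript length in the Fbn1 value was not tested.

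Eln (5:134702593-134747323, minus strand) encodes the elastic protein itself. It had 239 UMIs in UT, 216 CPM (190 to 246), and 38 UMIs in IMQ, 82.4 CPM (58.3 to 113). Its ratio of -1.39 (-1.93 to -0.89) was smaller in size than that of Fbn1. The 2 core genes therefore did not keep their proportion, and there were 2.21 Fbn1 UMIs for each Eln UMI in UT (1.89 to 2.58) and 1.08 in IMQ (0.677 to 1.72).

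The microfibril-associated genes split. Mfap4 (11:61485431-61488900), which encodes a fibrinogen-related glycoprotein of elastic fibres, was the most abundant of the 10 in both libraries. It had 1380 UMIs in UT, 1249 CPM (1184 to 1317), and 605 UMIs in IMQ, 1313 CPM. Its ratio in the kept barcodes was 0.07 with an interval from -0.07 to 0.21. This value rests on the barcodes taken, as it was -0.64 (-1.04 to -0.26) in barcodes with at least 500 detected genes and -0.32 (-0.51 to -0.13) in those with 5 to 10% mitochondrial UMIs. Few IMQ barcodes remain with at least 500 detected genes, and the part of their cell mix in this value was not tested. With TMM scaling the Mfap4 ratio was 0.55 (0.41 to 0.69). Mfap2 (4:141010418-141015984) encodes MAGP-1, a small glycoprotein bound to fibrillin, and had 442 UMIs in UT and 218 in IMQ. That was 400.1 CPM (364 to 439) against 473 CPM (412 to 540), a ratio of 0.24 whose lower bound touched 0.00. In barcodes with at least 500 detected genes the Mfap2 ratio was -0.65 (-1.37 to -0.01). Mfap5 (6:122505845-122529290) encodes the related MAGP-2 and went the other way, with 141 UMIs in UT, 128 CPM (107 to 151), and 33 UMIs in IMQ, 71.6 CPM (49.3 to 101). The ratio of Mfap5 was -0.83 (-1.43 to -0.28), close to that of the median gene. As a pair, Mfap2 and Mfap5 stood at 3.13 UMIs to 1 in UT (2.59 to 3.82) and 6.61 to 1 in IMQ (4.57 to 9.84).

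Fibulins also divided within their family. Fbln1 (15:85205949-85286535) encodes fibulin-1, a long fibulin found within the elastin core and in basement membranes, and was the 1 gene of the 10 with an interval well above 0. It had 183 UMIs in UT, 166 CPM (143 to 191), and 121 UMIs in IMQ, 263 CPM (218 to 314), a ratio of 0.66 (0.32 to 1.00). Fbln2 (6:91212455-91272540), the other long fibulin, had 361 UMIs in UT, 327 CPM (294 to 362), and 75 in IMQ, 163 CPM (128 to 204). Its ratio of -1.01 (-1.38 to -0.64) put it just past 2-fold, at 2.01-fold lower. The order of these relatives thus turned over, from 0.507 Fbln1 UMIs per Fbln2 UMI in UT (0.422 to 0.607) to 1.61 in IMQ (1.20 to 2.18).

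Among the short fibulins, Fbln5 and Efemp2 encode fibulin-5 and fibulin-4, which bind tropoelastin and are needed for elastic fibre assembly. Fbln5 (12:101746565-101819055, minus strand) had 164 UMIs in UT, 148 CPM (127 to 173), and 33 in IMQ, 71.6 CPM (49.3 to 101), with a ratio of -1.05 (-1.64 to -0.51). Efemp2 (19:5473954-5482517) was the lowest of the 10 in both libraries, with 106 UMIs in UT, 95.9 CPM (78.6 to 116), and 20 in IMQ, 43.4 CPM (26.5 to 67.0), and its ratio was -1.14 (-1.91 to -0.45). Efemp1 (11:28853204-28926743) encodes fibulin-3, a close relative of both, and had 301 UMIs in UT, 272 CPM (243 to 305), and 128 in IMQ, 278 CPM (232 to 330). The Efemp1 ratio of 0.03 (-0.28 to 0.33) did not separate the libraries in the kept barcodes. It was -0.39 (-0.58 to -0.21) over all deposited barcodes, -0.77 (-1.21 to -0.33) in those with 5 to 10% mitochondrial UMIs and 0.51 (0.20 to 0.81) with TMM scaling, so no direction is read for it. UMIs of Efemp1 per UMI of Efemp2 went from 2.84 in UT (2.27 to 3.58) to 6.40 in IMQ (3.98 to 10.8). The annotated spans of 4 genes overlap a gene on the other strand, Fbn1 with Gm9913, Eln with Gm30003, Efemp2 with Mus81 and Mfap4 with Mapk7. Reads were not examined, and strand use in counting was not stated.

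The start regions of some fibulin genes that moved in different directions are shown. RefSeq windows (GRCm38.p6) were held for 7 of the 10 genes, and the 250 bases before the first listed start of Fbln1, higher in IMQ, and of Fbln5 and Efemp2, lower in IMQ, are given 5′ to 3′ with GC boxes (GGGCGG, or CCGCCC on the other strand) in capitals. They lie at chr15:85205699-85205948 (plus strand), chr12:101819120-101819369 (minus strand) and chr19:5473696-5473945 (plus strand).
Fbln1: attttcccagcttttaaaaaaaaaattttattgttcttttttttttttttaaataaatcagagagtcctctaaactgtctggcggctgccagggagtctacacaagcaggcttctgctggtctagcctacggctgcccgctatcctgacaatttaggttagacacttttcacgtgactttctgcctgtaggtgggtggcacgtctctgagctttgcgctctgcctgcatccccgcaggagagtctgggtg
Fbln5: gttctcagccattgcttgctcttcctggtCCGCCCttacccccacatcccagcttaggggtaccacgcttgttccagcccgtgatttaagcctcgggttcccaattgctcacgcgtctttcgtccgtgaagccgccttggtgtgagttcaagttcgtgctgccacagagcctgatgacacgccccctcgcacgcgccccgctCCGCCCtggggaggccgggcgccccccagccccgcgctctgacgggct
Efemp2: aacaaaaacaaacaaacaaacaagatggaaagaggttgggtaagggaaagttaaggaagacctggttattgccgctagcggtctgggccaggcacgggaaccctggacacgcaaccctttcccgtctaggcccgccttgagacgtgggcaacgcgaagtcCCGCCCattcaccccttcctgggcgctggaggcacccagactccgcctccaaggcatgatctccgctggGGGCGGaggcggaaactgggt
The Fbln1 window held 0 GC boxes, although the window of its second listed start held 1, and the Fbln5 and Efemp2 windows held 2 each, although the second listed start of Fbln5 had 0. Over all 32851 RefSeq windows of this length, 32.7% held at least 1. Among the other genes held, the first listed windows of Fbn1, Fbln2 and Efemp1 held 1 each and that of Mfap2 held 2. These matches describe letters only, and a link to the direction of a gene was not tested.

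The summed level of the 10 genes differed less than most of its parts. The sum was 3844 UMIs in UT, 3479 CPM (3370 to 3591), and 1312 UMIs in IMQ, 2846 CPM (2694 to 3005), a log2 ratio of -0.29 (-0.38 to -0.20). This direction rests on the scale. It lies 0.32 above the median gene, and with TMM or median-of-ratios scaling, which bring the median gene to -0.14 and -0.15, the sum was higher in IMQ, at 0.19 with either. Mfap4 held much of it, and without Mfap4 the sum was 2464 UMIs in UT and 707 in IMQ with a CPM ratio of -0.54 (-0.66 to -0.42). Under each of these scalings 4 of the genes lay above 0 and 6 below, Fbn1 stayed at -1.94 and -1.95, and Fbln1 reached 1.15 and 1.14.

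The make-up of these UMIs does not depend on scaling. Fbn1 supplied 13.7% of the UMIs of the 10 genes in UT (12.6 to 14.8) and 3.13% in IMQ. Mfap4 supplied 35.9% in UT and 46.1% in IMQ, Mfap2 11.5% and 16.6%, and Fbln1 4.76% and 9.22%. The shares do depend on the barcodes taken, although few IMQ barcodes remain with at least 500 detected genes. With at least 500 detected genes Mfap4 supplied 31.8% in UT and 34.7% in IMQ (27.7 to 42.2), and Mfap2 11.0% and 11.9% (7.54 to 17.7). In those barcodes Fbn1 supplied 16.0% and 3.98%, and Fbln1 4.55% and 13.6%. The values that follow are again from all kept barcodes. Per Fbn1 UMI there were 2.62 Mfap4 UMIs in UT (2.37 to 2.90) and 14.8 in IMQ (10.7 to 20.8).

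**Figure D2:**
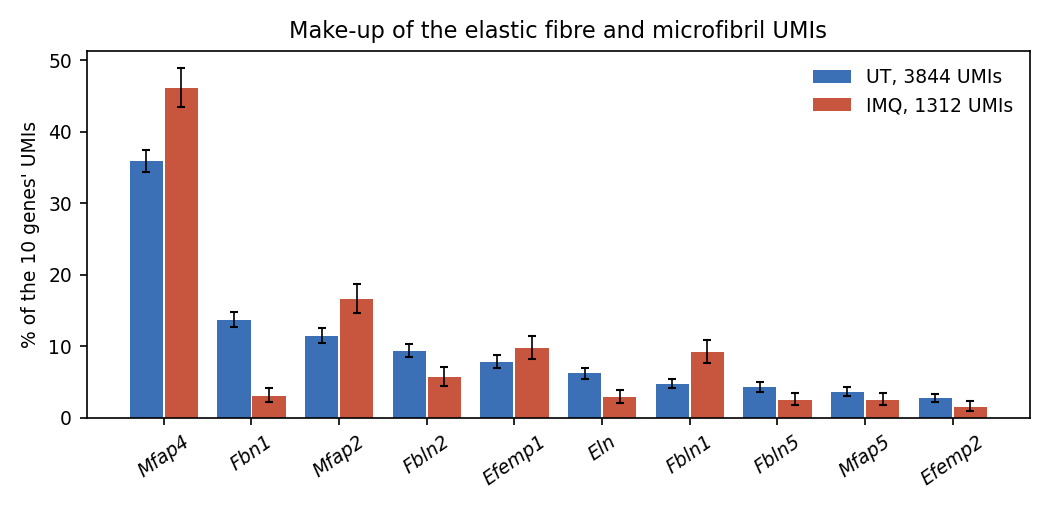
Percentage of all UMIs of the 10 genes that came from each gene, in UT (3844 UMIs) and IMQ (1312 UMIs), with exact binomial 95% intervals. The Fbn1 bar is at 13.7% in UT and 3.13% in IMQ, and those of Mfap4, Mfap2 and Fbln1 are taller in IMQ.

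The order of the genes by level was read against counting error. In UT, Mfap4 lay above Fbn1 without overlap, Fbn1 and Mfap2 overlapped, and Mfap2 lay above Fbln2, after which each gene overlapped its next neighbour down to Efemp2. In IMQ, Mfap4, Mfap2, Efemp1, Fbln1, Fbln2 and Fbn1 followed each other, and of these neighbours only Efemp1 and Fbln1 overlapped. Fbn1 went from rank 2 to rank 6 and Fbln1 from rank 7 to rank 4.

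Most barcodes held few UMIs of these genes. At least 1 UMI of any of the 10 was found in 77.5% of UT barcodes (74.9 to 80.0) and 76.0% of IMQ barcodes (72.3 to 79.5). Because barcodes differ in depth, each was also thinned to 400 UMIs, which left out 73 UT and 33 IMQ barcodes that were shallower. The shares were then 63.8% of 972 UT barcodes (60.7 to 66.8) and 61.2% of 538 IMQ barcodes (56.9 to 65.3), intervals that overlap. At this depth 3 or more of the 10 genes were seen together in 8.64% of UT barcodes (6.95 to 10.6) and 5.95% of IMQ barcodes (4.10 to 8.29).

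Single genes differed at equal depth as they did in CPM. Fbn1 was seen in 13.3% of thinned UT barcodes (11.2 to 15.6) and 2.79% of thinned IMQ barcodes (1.57 to 4.56). Eln went from 6.89% (5.38 to 8.67) to 2.79% (1.57 to 4.56), and Fbln5 from 5.45% (4.11 to 7.07) to 1.86% (0.895 to 3.39). In the other direction, Fbln1 was seen in 5.14% of UT (3.84 to 6.73) and 11.0% of IMQ barcodes (8.45 to 13.9), while the Mfap4 shares of 27.8% and 30.3% overlapped. For free RNA, the barcodes of a cluster led by Cd74 and class II genes, antigen-presenting genes that fibroblasts of resting skin largely lack, gave the reference. This cluster also held fibroblast markers, at 16885 CPM, with 5 of 7 seen in 20% of its barcodes. Whether these came from free RNA or from fibroblasts was not tested. None of the cluster's 25 UT barcodes (median 411 UMIs) held a UMI of the 10 genes. A count of 0 there leaves room for a share of 12% if up to 3 counts are allowed, and of 13.72% by the exact interval. The thinned UT share of Mfap4 lies above both limits. Those of Fbn1 and Mfap2 (13.68%) lie between these limits, and those of Eln, Fbln5 and Fbln1 lie below both. For these 5 genes this reference is too small to place the UT shares. In IMQ 3 of its 10 barcodes did (30%, 6.67 to 65.2; median 562 UMIs), and all 3 held Efemp1, while 1 of the 10 (10%, 0.253 to 44.5) held Mfap4 and Mfap2. The unthinned IMQ shares of Mfap4 (40.8%) and Mfap2 (29.1%) lie above that 10% but inside its interval. The unthinned IMQ share of Efemp1, 18.0%, is below the 30% of this reference and inside its interval, so it may be background. With 10 barcodes this reference is too small to place these IMQ shares, or those of the genes it showed at 0.

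**Figure D3:**
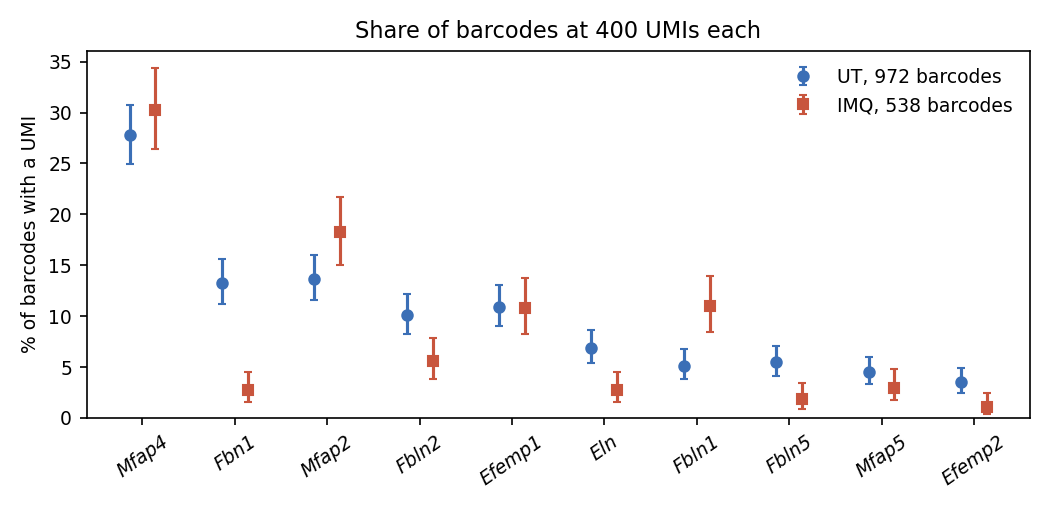
Percentage of barcodes with at least 1 UMI of each gene after every barcode was thinned to 400 UMIs, in UT (972 barcodes) and IMQ (538 barcodes), with exact binomial 95% intervals. Fbn1 stands at 13.3% in UT and 2.79% in IMQ and Fbln1 at 5.14% and 11.0%, and neither pair of intervals overlaps.

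Across barcodes the 10 genes varied almost independently. Over the 45 pairs the median Pearson r of log counts in thinned barcodes was 0.02 in both UT (972 barcodes) and IMQ (538 barcodes), and the highest pair in UT was Fbn1 with Fbln2 at 0.14. Pairs of these genes met in the same barcode 1.21 times as often as their shares predict in UT (514 seen, 426 predicted, summed over pairs) and 1.13 times as often in IMQ (185 seen, 164 predicted). Points share a library and a depth, and counts this sparse hold r near 0. Within each of the 3 largest clusters the median r was between -0.02 and 0.01. The sum of the 10 genes had its highest r, by the lower of both libraries, with Col3a1 (0.33 in UT, 0.26 in IMQ), Col1a2 (0.36 and 0.24), Col1a1 (0.37 and 0.19), Dcn (0.33 and 0.18) and Gsn (0.30 and 0.15), among 475 genes seen in at least 5% of thinned barcodes of each library. Fibrillar collagens and decorin thus headed the list. They are also abundant, with Col1a1 at 25527 CPM and Col3a1 at 10505 CPM in UT. Any part of abundance or of the mix of clusters in this order was not tested. Mfap4 alone was most like Sparc (0.22 and 0.17), and Fbln1 most like Gsn (0.15 and 0.21).

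Clusters were made from both libraries after integration, with the 10 genes left out of the genes used for clustering, so that the clusters were not formed on their levels. Clusters 1, 2, 3 and 6 were fibroblast-like by their markers. Cluster 1 (438 UT and 221 IMQ barcodes) was led by Igfbp2, cluster 2 (401 and 242) by genes that included Abi3bp and Col1a1, cluster 3 (128 and 87) by Lbp and Pi16, and the small cluster 6 (21 and 4) by Coch and Fmod. Cluster 4 (32 and 7 barcodes) was led by Malat1 and keratins and was left unnamed, and cluster 5 is the class II cluster above. In cluster 4 the keratinocyte markers Krt1, Krt10, Dsp and Perp were enriched, but 1 of the 8 on that list was seen in 20% of its barcodes. All 7 fibroblast markers were seen in 20% of them, and Pdgfra and the papillary markers Wif1, Lef1 and Crabp1 were at least 2-fold enriched. Of the 7 fascial fibroblast markers on the list, Pi16, Sema3c, Cd55, Anxa3 and Ackr3 were at least 2-fold enriched in cluster 3, but 2 of the 7 were seen in 20% of its barcodes and it is named by its leading genes.

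**Figure D4:**
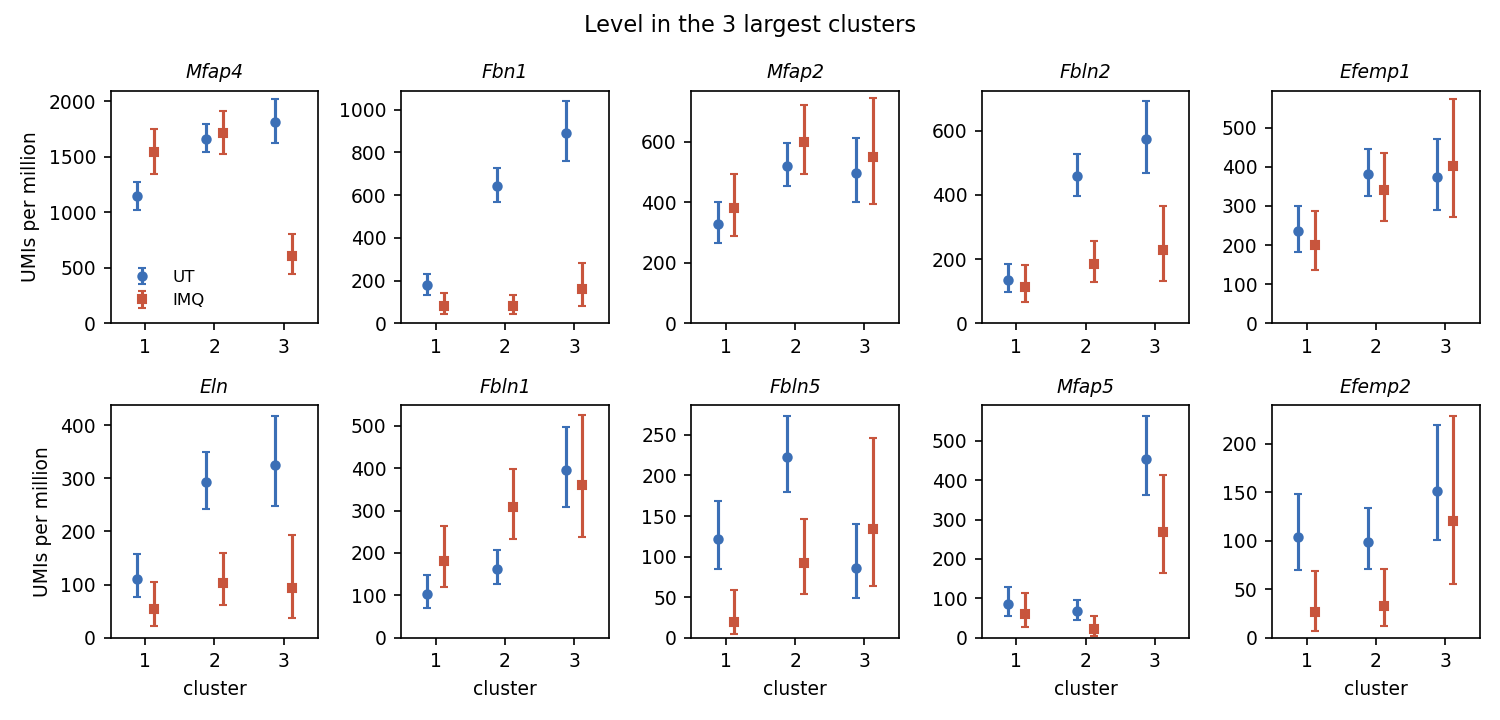
Level of each gene in clusters 1, 2 and 3 in the UT library (circles) and the IMQ library (squares), in CPM on linear axes that start at 0 and differ between panels, with exact Poisson 95% intervals. Fbn1 is lower in IMQ in all 3 clusters, Mfap5 is highest in cluster 3 in both libraries, and Mfap4 is lower in IMQ in cluster 3 at 602 against 1812 CPM.

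In UT the Pi16-led cluster held the most elastic fibre message. Its sum was 5561 CPM, 1.53-fold that of the other fibroblast-like clusters (log2 0.62, 0.51 to 0.72). Mfap5 stood out there, at 454 CPM in UT against 73.1 CPM in the others, 6.22-fold, and at 268 against 38.4 CPM in IMQ, 6.98-fold (log2 2.80, 1.72 to 3.93). Fbln1 was 2.92-fold higher in this cluster in UT (395 against 135 CPM), and Fbn1 2.03-fold (893 against 440 CPM, log2 1.02, 0.74 to 1.30). Among the others in UT, the sum was 4509 CPM in cluster 2 (4307 to 4717) and 2543 CPM in cluster 1. Between clusters 2 and 3 in UT the intervals of Eln, Fbln2, Efemp1, Efemp2, Mfap2 and Mfap4 overlapped. Those of Fbn1, Fbln1, Fbln5 and Mfap5 did not. In IMQ the summed level of the Pi16-led cluster was 2918 CPM, a log2 ratio of -0.08 to the other fibroblast-like clusters with an interval from -0.29 to 0.14. These contrasts depend on how clusters are drawn. Without integration the cells separated largely by library, the Pi16-led cluster held 563 UT and 20 IMQ barcodes, and Mfap5 was higher in it by log2 0.86 in UT (0.22 to 1.55) and 0.27 in IMQ (-2.83 to 2.25). Fbln5 was 2.22-fold lower in the Pi16-led cluster in UT, but lay at log2 0.18 at a clustering resolution of 0.8 and at 0.51 without integration, so no direction is read for it.

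Fbn1 was lower in IMQ in every one of the 3 large clusters. Its log2 ratio of IMQ to UT was -1.14 (-2.18 to -0.21) in cluster 1, -2.99 (-3.85 to -2.24) in cluster 2 and -2.47 (-3.46 to -1.63) in cluster 3. Eln lay below 0 in clusters 2 (-1.51, -2.29 to -0.81) and 3 (-1.79, -3.17 to -0.66), and its interval in cluster 1 covered 0. Mfap4 differed in sign between clusters, with a ratio of 0.43 (0.18 to 0.68) in cluster 1, 0.04 (-0.16 to 0.23) in cluster 2 and -1.59 (-2.07 to -1.14) in cluster 3. In cluster 3 that was 335 UMIs or 1812 CPM in UT and 45 UMIs or 602 CPM in IMQ. Fbln1 was higher in IMQ in cluster 2 (0.91, 0.38 to 1.44), while in cluster 3, where its UT level was highest, the interval covered 0. These ratios were taken in the integrated clustering alone. Without integration the fibroblast-like clusters held 563 UT and 20 IMQ, 51 and 504, and 364 and 30 barcodes. Which UT and IMQ barcodes are compared within a cluster therefore rests on the integration.

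The smaller clusters had other profiles. Cluster 6 held 17 UMIs of the 10 genes among 19855 in UT, and 11 of the 17 were Fbln5, at 554 CPM (277 to 991) above its 223 CPM in cluster 2 (180.0 to 273). Fbn1, Eln, Fbln1, Efemp1, Mfap4 and Mfap5 had 0 UMIs there, which allows up to 151 CPM each. Cluster 4, whose barcodes were deep, held 1048 CPM of the 10 genes in UT (902 to 1209), with Fbn1 at 242 and Mfap4 at 130 CPM (82.1 to 194). Its Fbn1 interval (175 to 326) overlapped that of cluster 1, where Fbn1 was at 177 CPM (132 to 233).

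The mitochondrial share of the barcodes changed some values and not others. Fbn1 had a log2 ratio of -2.52 in barcodes with up to 2.5% mitochondrial UMIs, and ratios of -2.32 from 2.5 to 5%, -1.66 from 5 to 10% and -1.80 above 10%. Eln had ratios of -1.21, -1.57, -1.98 and -1.03 in the same order, the last with an interval that covered 0. For Fbln1 the ratios were 0.80 (0.35 to 1.24), 0.48 (-0.07 to 1.02), 0.05 (-0.49 to 0.61) and -0.73 (-1.70 to 0.40), so that its interval lay above 0 in the lowest class and covered 0 in the others. Over all deposited barcodes Fbln1 stood at 0.20 (-0.03 to 0.42), where its interval covers 0. With the limit at 10%, which kept 1301 UT and 1043 IMQ barcodes, Fbn1 stood at -2.13 (-2.47 to -1.81) and Fbln1 at 0.49 (0.21 to 0.77), and 4 of the 10 genes were at least 2-fold lower, where 32.3% of 8833 genes were, with 0 of 10 at least 2-fold higher, where 3.33% were. The gene that dropped out was Fbln2, at -0.94.

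The rest of the elastic fibre pathway was taken from a list of 46 genes, of which 30 had at least 20 UMIs. Of these 30, 3 were at least 2-fold lower in IMQ, 1 was at least 2-fold higher, and 9 intervals lay below 0 and 6 above. Over all 8129 genes 32.0% were at least 2-fold lower and 3.73% at least 2-fold higher. The median ratio of the 30 was -0.19, above that of all genes.

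The cross-linking enzymes had CPM ratios on either side of 0. Lox, the lysyl oxidase that cross-links collagen and elastin, had 166 UMIs in UT, 150 CPM, and 135 in IMQ, 293 CPM, a ratio of 0.96 (0.62 to 1.30). Loxl1, the relative that is tied to elastin through fibulin-5, had 128 UMIs in UT, 116 CPM, and 33 in IMQ, 71.6 CPM, a ratio of -0.69 (-1.29 to -0.13). Relative to the median gene Lox stood at 1.57 and Loxl1 at -0.09, so Loxl1 lay close to the median gene. For Loxl2 the interval covered 0. All 4 measured latent TGF-beta binding proteins, Ltbp1 to Ltbp4, had intervals that covered 0. Of the ligands, Tgfb2 was lower at -0.94 (-1.64 to -0.29), and 16 of its 110 UT UMIs and 9 of its 24 IMQ UMIs came from 1 barcode of each library. Tgfb2 stood at -0.33 relative to the median gene.

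Enzymes that can degrade elastic fibres and their inhibitors were measured as well. Mmp14, a membrane-bound metalloproteinase, had 603 UMIs in UT, 546 CPM, and 67 in IMQ, 145 CPM, a ratio of -1.91 (-2.30 to -1.54). Ctsk, which encodes the collagen- and elastin-degrading cathepsin K, had 4840 UMIs in UT, 4381 CPM, and 2928 in IMQ, 6352 CPM, a ratio of 0.54 (0.47 to 0.60). Mmp9, Mmp12 and Elane, elastases best known from macrophages and neutrophils, had 0 UMIs in both libraries after a sort that removed CD45+ cells. Among the inhibitors, Timp1 was higher in IMQ on few UMIs, 15 in UT and 21 in IMQ (1.75, 0.72 to 2.81), and Timp3 was lower at -0.95 (-1.39 to -0.53). Timp3 stood at -0.34 relative to the median gene. Vcan, a proteoglycan that binds fibrillin, was lower on 57 and 7 UMIs (-1.76, -3.14 to -0.63), and Fn1, fibronectin, was higher at 0.76 (0.34 to 1.17). The remaining gene past 2-fold, Ctss, had 28 of its 33 UT UMIs in 1 barcode and an interval that covered 0.

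Other matrix genes of the same cells were set beside them. Col1a1, Col1a2 and Col3a1, the fibrillar collagens, had ratios of 0.88, 0.92 and 0.98, and Sparc, a collagen-binding glycoprotein, had 1.11. Postn, periostin, stood at 1.00 on 24 UMIs in UT and 20 in IMQ (0.07 to 1.92). Dcn, decorin, was lower in CPM at -0.47, though at 0.13 relative to the median gene, and Lum, lumican, lay at 0.12. The ratio of Fbn1 was thus below, and that of Fbln1 within, the range of these 7 genes.

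**Figure D5:**
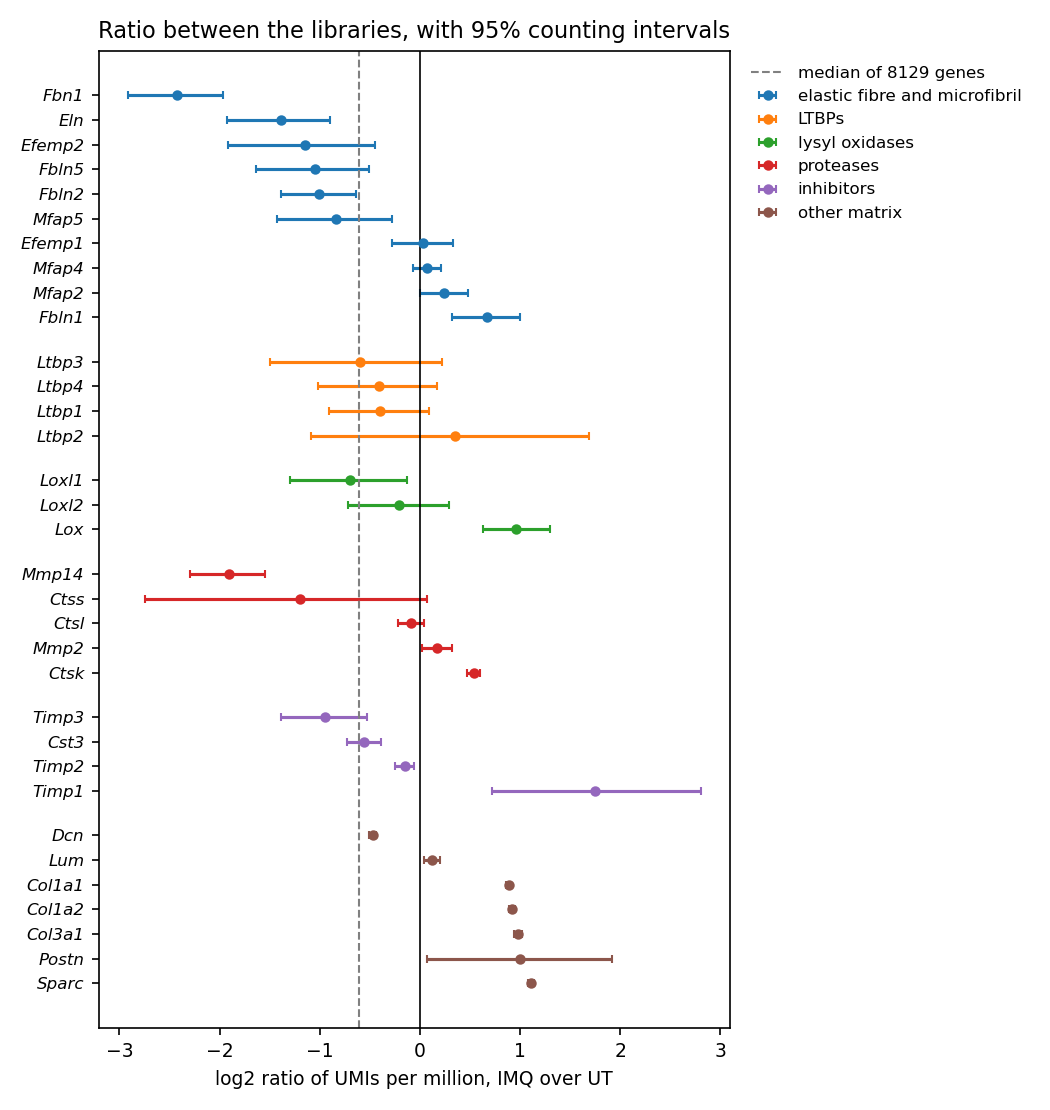
Log2 ratio of CPM, IMQ over UT, with exact 95% counting intervals, for the 10 genes and for other genes with at least 20 UMIs. The others are latent TGF-beta binding proteins, lysyl oxidases, proteases, inhibitors and other matrix genes. Associated proteins such as Vcan and Fn1, TGF-beta ligands and integrins are not drawn. The solid line marks equal levels and the dashed line the median of the 8129 genes at -0.61. Fbn1 at -2.42 and Mmp14 at -1.91 lie farthest to the left, and Timp1 at 1.75 farthest to the right.

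Markers of other cell types also differed between the libraries. The keratinocyte list summed to 1753 CPM in UT (7 of 8 markers seen) and 15.2 CPM in IMQ (3 of 8, with Krt5, Krt1, Krt15, Dsp and Perp at 0), and 49.4% of the UT UMIs came from 1 barcode. The class II or myeloid list summed to 1598 CPM in UT and 199.6 CPM in IMQ, with 86.5% of the UT UMIs in 1 barcode. Among the fibroblast subtype lists, the papillary list stood at 799 CPM in UT and 254 CPM in IMQ, the fascial list at 2139 and 1289, the dermal papilla list at 57.9 and 6.51, and the reticular list at 1767 and 1948. The part of these lists in the values of the 10 genes was not tested. Smooth muscle cells and pericytes also make elastin, and their list stood at 148 CPM in UT and 62.9 CPM in IMQ with the defining markers Myh11, Cnn1 and Rgs5 at 0 in both. Restricted to the fibroblast-like clusters, Fbn1 had a ratio of -2.50 (-3.01 to -2.02) and the sum -0.40 (-0.49 to -0.31), so both values were at least as large without the barcodes of clusters 4 and 5. Since cluster 4 also showed fibroblast markers, this restriction did not take out other cell types alone.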

How the data were processed

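The authors sorted dermal cells, made 1 Chromium 3′ version 3 library per condition and deposited Cell Ranger matrices of raw UMI counts per gene and barcode, with no normalisation (Cell Ranger 3.0.0 for UT and 3.1.0 for IMQ per the file headers, mm10 per the submitters' processing notes). The annotation was not given in the sources used here, and 31011 of 31053 gene identifiers matched GENCODE M21, from which gene coordinates come. The study counts more filtered IMQ cells than the deposited IMQ matrix has barcodes, so another matrix may lie behind its analysis. The libraries shared 1 deposited barcode and 0 kept ones. Kept UMIs totalled 1104798 and 460947, which sets the counting error.

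Kept UMIs were summed per gene and library. CPM intervals are exact Poisson, ratios exact conditional binomial and shares Clopper-Pearson, all at 95%. The pseudocount for the ratios over all genes was 1 CPM. With 1 library per condition no test was run, so that "called" means a 2-fold difference, and zero counts allow up to 3 counts. Clusters came from Seurat 5.3.0 (R 4.3.3) with 2000 variable genes, 30 anchor dimensions, 20 components and resolution 0.5. A cluster was called fibroblast-like from the fixed marker lists. Doublets were scored by Scrublet (scanpy 1.11.5), and the top 0.8% per 1000 deposited barcodes were removed only as an alternative, so the main values may include doublets, which the study took out with DoubletFinder. Named genes are the 10 genes, a pathway list where at least 20 UMIs were seen, 7 other matrix genes, and the 5 genes most like a gene with at least 100 UMIs per library. The set of 10 genes, though defined by symbol alone, and the lists were proposed with earlier results of these data known. Alternatives were a 10% mitochondrial limit, at least 500 genes, doublets removed, fibroblast-like clusters only, all barcodes, TMM (edgeR 4.0.16) and median-of-ratios (DESeq2 1.42.0) scaling, CPM without technical genes, thinning to 400 UMIs, leaving out the top barcode, other clusterings and, chosen after seeing the data, the sum without Mfap4 and barcodes of 5 to 10% mitochondrial UMIs alone. Ratios, intervals and thinning were tested on simulated data.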

Additional observations from a re-analysis of the deposited data

Results flagged for a closer look

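Mfap4 had a log2 ratio of IMQ to UT of 0.43 in cluster 1 (329 UMIs in UT, 230 in IMQ) and of -1.59 in cluster 3 (335 and 45), with intervals on opposite sides of 0. It is listed because the same contrast ran in opposite directions in 2 groups of cells. The difference between the clusters was not tested, since each holds 1 library per condition. Both are clusters made after integration, and these ratios were not repeated in another clustering. Over all kept barcodes the ratio was 0.07.

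Mfap2 was at 369 CPM in the IMQ barcodes that the filters left out, above its level in the left-out UT barcodes (log2 ratio 0.56, 0.26 to 0.87). It is listed because these barcodes enter no main comparison. The left-out sets differ in make-up, as barcodes under 200 genes were 64 of 370 in UT and 3621 of 4476 in IMQ. By class, the ratio was 0.17 (-0.21 to 0.55) from 5 to 10% mitochondrial UMIs and 0.30 (-0.51 to 1.24) above 10%. Under 200 genes it was 2.02 (0.16 to 5.07), on 2 UT UMIs. The part of this make-up in the flagged value was not tested. In the kept barcodes the ratio was 0.24 with a lower bound of 0.00.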

How the results depend on the processing

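Fbn1 stayed below 0 under every alternative tried, from -2.77 with at least 500 detected genes to -1.66 in barcodes of 5 to 10% mitochondrial UMIs. The summed ratio, -0.29 in the main setting, turned to 0.19 with TMM and to 0.19 with median-of-ratios scaling, and stood at -0.031 in CPM without technical genes. It was -0.76 with at least 500 genes, -0.40 in fibroblast-like clusters, -0.39 over all deposited barcodes, -0.59 in barcodes of 5 to 10% mitochondrial UMIs and -0.54 without Mfap4. The number of genes at least 2-fold lower, 5, became 1, 1 and 2 under these 3 scalings in turn, and the number at least 2-fold higher, 0, became 1 with TMM and 1 with median-of-ratios scaling. Over all genes 32.0% were at least 2-fold lower in CPM 18.9% with TMM, 18.9% with median-of-ratios scaling and 24.4% in CPM without technical genes, against 3.73%, 9.15%, 8.56% and 6.10% higher, and the median gene moved from -0.61 to -0.14 with TMM. The share of barcodes with any of the 10 genes follows depth, being 95.7% in UT and 94.6% in IMQ with at least 500 genes and 63.8% and 61.2% after thinning. Without integration the Pi16-led cluster stood at 0.79 in UT and -0.53 in IMQ for the sum. Of ratios whose interval excluded 0, signs turned for Mfap2 with at least 500 genes (-0.65), where few IMQ barcodes remain, for Fbln5 in the Pi16-led cluster in UT (0.18 at resolution 0.8, 0.51 without integration), and for Efemp2 there in IMQ without integration (-0.020). Ratios whose interval covered 0 also turned, Mfap4 to -0.64 with at least 500 genes and -0.32 from 5 to 10% mitochondrial UMIs, Efemp1 to -0.39 over all barcodes and -0.77 from 5 to 10%, and in the Pi16-led cluster in IMQ without integration Fbln1 to -1.51, Fbln2 to -1.77 and Mfap2 to -0.86, among others. Where no cause is named above, the cause was not tested. The median ratio of the 10 genes stayed between -1.05 and -0.44, and the median correlations lay between -0.02 and 0.06, under all alternatives run. No paired analysis was possible because the groups compared share fewer than 2 replicate numbers. Depth limits the low genes most, as Efemp2, Fbln5 and Mfap5 rest on 20, 33 and 33 IMQ UMIs.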
